A study of Mus musculus with 48 samples.

Results

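The cytosolic ribosomal protein genes were described across 4 cell populations and 3 treatments of a mouse model of chronic cardiac dysfunction. Members were the protein-coding genes whose mouse symbol is Rpl or Rps with a number, Rplp0 to Rplp2 or Rpsa, without the ribosomal S6 kinase genes, and this rule took 83 of the 54752 genes of the matrix. Of these, 32 genes (with Rpsa) encode proteins of the small subunit and 51 encode proteins of the large subunit, and 6 of the 83 are paralogues of a core gene (Rpl3l, Rpl7l1, Rpl10l, Rpl22l1, Rpl39l and Rps27l). The measurement was RNA-seq of 48 libraries from 13 Prox1-eGFP knock-in mice on C57BL/6, in which eGFP is made from the endogenous Prox1 locus and so marks lymphatic endothelium. Male mice received bovine serum albumin (control), angiotensin II (angII) or angiotensin II together with VEGFCc156s, a lymphangiogenic growth factor, from an osmotic pump for 5 to 6 weeks, and their labelled ages were 8 to 16 months. The methods of the study give ages in weeks, so the unit of the labelled ages is uncertain, and they were used as labelled. Lymphatic endothelial cells of the heart (heart LEC) and of the diaphragm (diaphragm LEC), blood endothelial cells of the heart (heart BEC) and cardiomyocytes gave 12 libraries each, from 4 control, 5 angII and 3 angII+VEGFCc156s mice. The endothelial populations were sorted, the cardiomyocytes were collected by pelleting, and 11 mice gave all 4 populations. All cardiomyocyte libraries formed sequencing batch 3 and all endothelial libraries batches 1 and 2, so the cell type, its isolation and its batch cannot be told apart in any comparison with cardiomyocytes.

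Ribosomal proteins assemble with ribosomal RNA into the small subunit, which reads the mRNA, and the large subunit, which joins the amino acids. Their genes are among the most highly expressed of any cell, and their products are needed in near equal amounts. In mammals their mRNAs begin with a C and an unbroken run of pyrimidines, the 5′ terminal oligopyrimidine (TOP) motif, through which LARP1 and the kinase mTOR adjust their translation. Several core proteins have paralogues with a restricted expression, of which Rpl3l is known from heart and skeletal muscle.

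The motif was searched around the gene starts of RefSeq (GRCm38.p6), on the strand of the gene, as a C followed by at least 4 further C or T. Promoter windows matched 63 of the 83 members and gave 75 starts. A run covered the annotated start base in 20 of the 75 member starts (26.7%) and in 2636 of the 32851 starts of all genes (8.02%), and the start base was itself a C followed by at least 4 C or T in 13 member starts (17.3%) and 823 of all starts (2.51%). With the run allowed within 10 bases of the start, it was found at 37 member starts (49.3%) and at 26.5% of all starts, and runs of at least 8 bases there were found at 22 member starts (29.3%) and 7.89% of all starts. Of the 75 starts of mitochondrial ribosomal protein genes 3 (4%) were covered by a run, 0 had such a C as the start base, and 26 (34.7%) had a run within 10 bases. The windows printed here run from 10 bases before the start through the following 20 bases, 5′ to 3′. They show 7 of the 13 members whose start base was such a C, with the run in capitals. Rpl3l and Rpsa are printed as members in which no run was found wholly within 10 bases of the start. The Rpl3l window does hold a C followed by 4 C or T, but it extends past those 10 bases and was not counted or capitalized.
Rpl15, chr14:18270967-18270996, minus strand: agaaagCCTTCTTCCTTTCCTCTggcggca
Rpl35, chr2:39005112-39005141, minus strand: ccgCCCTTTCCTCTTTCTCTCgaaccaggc
Rplp2, chr7:141447641-141447670, plus strand: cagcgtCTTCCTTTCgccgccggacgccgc
Rps6, chr4:86857348-86857377, minus strand: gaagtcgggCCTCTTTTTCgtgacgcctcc
Rps18, chr17:33955646-33955675, minus strand: cacttccgCTCTCTCTTCCacaggaggcct
Rps21, chr2:180257369-180257398, plus strand: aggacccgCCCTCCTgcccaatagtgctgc
Rps27, chr3:90213629-90213658, minus strand: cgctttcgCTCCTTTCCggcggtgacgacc
Rpl3l, chr17:24727816-24727845, plus strand: ttctagctctgtcatttgacctctggtgcc
Rpsa, chr9:120127756-120127785, plus strand: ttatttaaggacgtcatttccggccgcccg
The run was 17 bases in Rpl15 and 18 in Rpl35, the longest printed here, and 7 bases in Rps21. The other members with a run over the start base were Rpl7a, Rpl14, Rpl27a, Rpl28, Rpl31, Rpl34, Rpl35a, Rpl38, Rpl39, Rps9, Rps10, Rps15a and Rps24. These matches describe the annotated starts and were not measured in the libraries.

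The libraries carried the markers of their labels. Prox1 averaged 172 TPM in heart LEC and 234 TPM in diaphragm LEC, against 3.49 TPM in heart BEC and 3.25 TPM in cardiomyocytes, and Tnnt2, a cardiac troponin, averaged 3013 TPM in cardiomyocytes and at most 82.4 TPM in an endothelial population. The other cell types were not at zero: Myh6 averaged 19.5 TPM in heart LEC, Ly6c1 758 TPM in heart LEC, and the fibroblast gene Dcn 2374 TPM in cardiomyocytes. Values are in TPM, the transcript abundance scaled to a fixed total, that is a share of each library's transcripts, so read depth is unknown and a higher level of some genes lowers the values of all others. Mitochondrial genes took a mean of 25.2% of the TPM in cardiomyocytes and between 2.04% and 3.77% in the endothelial populations. In these bulk samples, fewer cells of a type and less RNA per cell cannot be told apart.

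Every member reached 1 TPM in at least 1 library. Among the members with the highest mean over the 4 populations were Rpl13, Rpl41, which encodes a very short basic peptide, Rps27, a zinc finger protein of the small subunit, and Rps19, needed for small subunit maturation, with means of 1697, 1559, 1478 and 1094 TPM. Among the 77 core genes the lowest was Rpl5, which binds the small ribosomal RNA of the large subunit, with 127 TPM, and their median was 444 TPM. Below Rpl5 came 4 paralogues: Rpl7l1 averaged 62.2 TPM, Rpl3l 6.57 TPM, Rpl39l 0.937 TPM and Rpl10l 0.184 TPM. Rpl10l was listed at 0 in more than 6 of the 12 libraries of every population, and Rpl39l stayed under 1 TPM in every cardiomyocyte library.

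The order of the members was nearly the same in every population. Across the 77 core genes, Spearman's rho of the mean TPM was 0.989 between heart LEC and heart BEC, 0.994 between heart and diaphragm LEC and 0.974 between cardiomyocytes and heart BEC. These are correlations across genes that share libraries and transcript lengths, and genes are not independent replicates. The core genes were shifted together: the ratio of the mean levels had a median of 1.29 (range 1.07 to 1.52) for heart LEC over heart BEC, 0.972 (0.794 to 1.07) for heart LEC over diaphragm LEC and 0.600 (0.442 to 0.905) for cardiomyocytes over heart BEC. Of the 83 members, 48 were highest in diaphragm LEC, 34 in heart LEC and 1, Rpl3l, in cardiomyocytes. Cardiomyocytes had the lowest mean for 82 members, and for 80 members both LEC means lay above heart BEC and heart BEC above cardiomyocytes.

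**Figure D1:**
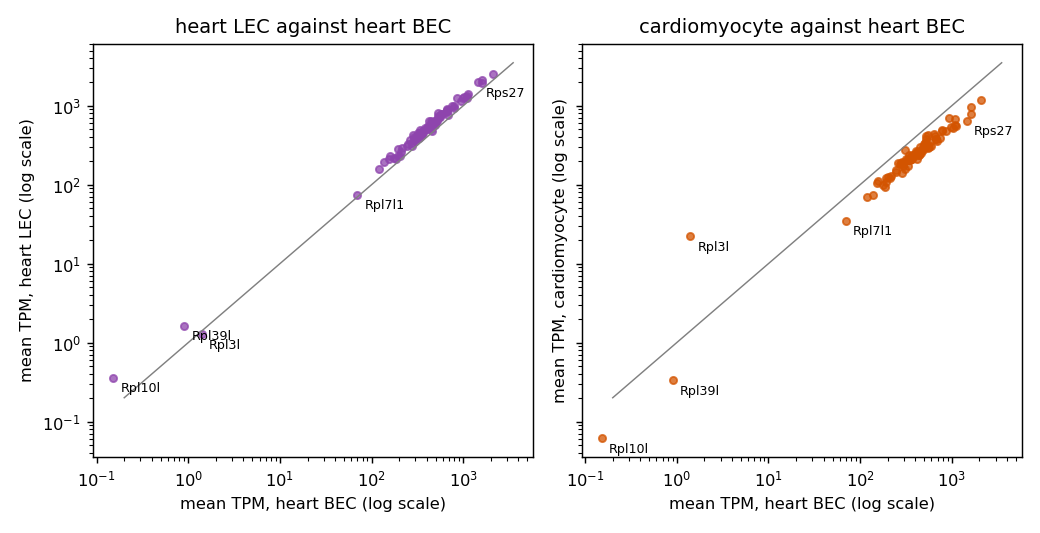
Mean TPM of each member in heart LEC and in cardiomyocytes (vertical axes) against heart BEC (horizontal axes), on log scales, 1 point per gene, with the line of equal levels. Most points of heart LEC lie just above the line and those of cardiomyocytes below it, except Rpl3l, which had 22.3 TPM in cardiomyocytes and 1.40 TPM in heart BEC.

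Summed over the 83 members, the ribosomal protein genes took 5.96% ± 0.623 (SD, n = 4) of the TPM in control heart LEC, 5.57% ± 0.394 (n = 4) in control diaphragm LEC, 4.55% ± 0.385 (n = 4) in control heart BEC and 2.16% ± 0.178 (n = 4) in control cardiomyocytes. Within mice, which removes the differences between animals, the share of heart LEC exceeded that of heart BEC in 11 of 12 mice, with a median ratio of 1.33 (lowest 0.841, highest 1.61). Diaphragm LEC exceeded heart BEC in 11 of 11 mice with a median ratio of 1.28, and heart LEC in 7 of 11 mice with a median ratio of 1.02. As a share of all TPM, cardiomyocytes lay below heart BEC in 12 of 12 mice, with a median ratio of 0.601. As a share of nuclear protein-coding genes alone, the control means were 6.62% in heart LEC, 6.02% in diaphragm LEC, 5.09% in heart BEC and 4.00% in cardiomyocytes. The control groups thus kept their order, with cardiomyocytes closer to heart BEC and below it in every control mouse. In the angII+VEGFCc156s mice cardiomyocytes lay above heart BEC on this share, at 3.88% against 3.70%, 4.96% against 4.75% and 4.66% against 4.38%. In the angII mice the order was mixed, at 3.77% against 5.33%, 4.62% against 4.09%, 4.26% against 4.06%, 4.23% against 4.08% and 3.66% against 4.45%. The balance of the subunits hardly moved: the summed TPM of the small subunit divided by that of the large subunit averaged 0.731 ± 0.0195 (SD, n = 12) in heart LEC, 0.721 ± 0.00996 in diaphragm LEC, 0.724 ± 0.0152 in heart BEC and 0.700 ± 0.0121 in cardiomyocytes.

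**Figure D2:**
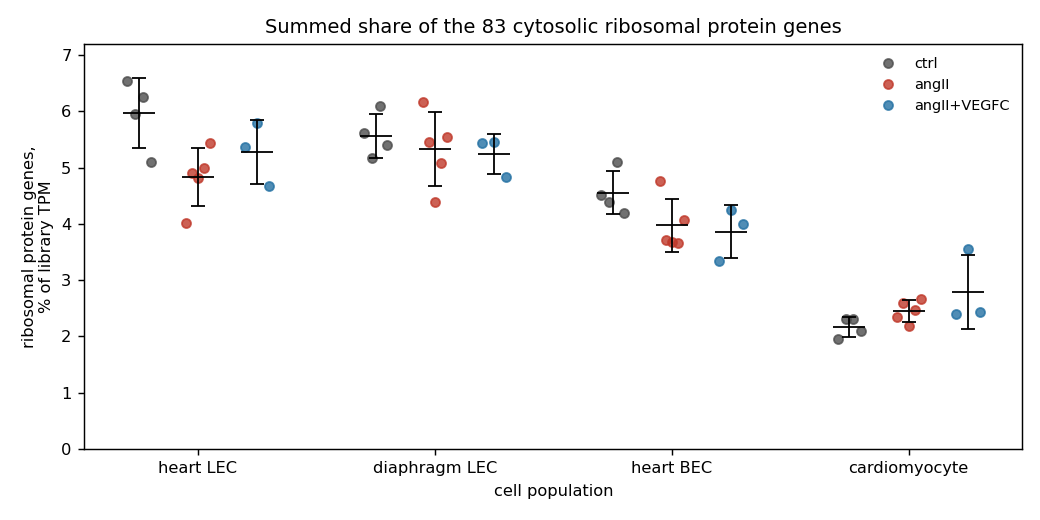
Summed TPM of the 83 members as a percent of each library's TPM (vertical axis) by cell population (horizontal axis), with 1 point per library coloured by treatment and the mean and SD of each group. Heart LEC libraries lie between 4.01% and 6.54%, heart BEC between 3.33% and 5.10%, and cardiomyocytes between 1.95% and 3.55%.

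The first comparison asked how lymphatic and blood endothelium of the same hearts differ. Ribosomal protein mRNAs were higher in heart LEC: 70 of 82 tested members had an adjusted p under 0.05 and a higher level, against 10.6% of all genes tested, and 0 members were lower, against 9.99% of all genes (limma, averaged over the 3 treatments). The median log2 difference was 0.37 over the members and 0.17 over all genes tested. The call was made for 31 of 32 small subunit genes, 39 of 50 large subunit genes and all 3 stalk genes, Rplp0, Rplp1 and Rplp2, whose products recruit translation factors. With the contrast taken between the control groups alone, in the same fit of all endothelial libraries, 32 members passed as higher, against 4.03% of all genes.

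The largest difference belonged to Rps21 (small subunit), whose level had a median of 496 TPM in heart LEC (lowest 363, highest 684) and 301 TPM in heart BEC (189 to 560). Its log2 difference was 0.64 (SE 0.09, limma adjusted p = 1.52e-06), and the libraries of the populations overlapped. Rpl10, which joins the large subunit in its last maturation steps, had a median of 755 TPM in heart LEC (602 to 1037) and 526 TPM in heart BEC (448 to 583). Every heart LEC library lay above every heart BEC library for Rpl10 and for no other member, while 1.65% of all genes separated in this way, and its log2 difference was 0.60 (SE 0.07, limma adjusted p = 3.57e-08). Rpl35, near the exit of the peptide tunnel, was higher by 0.63 on the log2 scale (limma adjusted p = 1.74e-05), Rps3, at the entry of the mRNA channel, by 0.61 (limma adjusted p = 2.78e-06), and Rpl39, which lines the peptide tunnel, by 0.58 (limma adjusted p = 4.99e-05). The 12 members that did not pass were Rpl15, Rpl18, Rpl27a, Rpl28, Rpl29, Rpl39l, Rpl3l, Rpl6, Rpl7a, Rpl7l1, Rpl8 and Rps27l, so that 4 of the 5 tested paralogues were among them.

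Heart and diaphragm LEC differed little. Only Rpl12, at the base of the stalk, passed in the comparison of diaphragm with heart LEC: it was higher in diaphragm LEC, where its level had a median of 254 TPM (211 to 335) against 217 TPM (133 to 274) in heart LEC. Its log2 difference was 0.31 (SE 0.09, limma adjusted p = 0.0322), and the libraries overlapped. This was 1 of 82 members higher, against 2.29% of all genes tested, with 6 members higher at an unadjusted p under 0.05, against 6.86% of all genes, and a median log2 difference of 0.03 over the members and -0.12 over all genes. Rplp0 had a log2 difference of 0.17 that did not pass (limma adjusted p = 0.0728), and with the mouse as a block, which gave 2 calls, it passed as well. The single call did not pass without covariates, with quantile normalization, with rescaling to nuclear protein-coding genes or in the contrast of the control groups alone. Also, 0 members passed without diaphragm LEC control replicate 3, diaphragm LEC angII+VEGFCc156s replicate 1 or 2, heart LEC angII replicate 1, or heart LEC angII+VEGFCc156s replicate 2 or 3. Without diaphragm LEC angII replicate 3 there were 3 calls, and without diaphragm LEC control replicate 1 or heart LEC control replicate 1 there were 2.

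Cardiomyocytes had lower TPM of nearly every member than heart BEC. In limma, 79 of 82 tested members were lower, against 66.5% of all genes tested, and 1 member, Rpl3l, was higher, against 11.3% of all genes. A gene could enter this test by its level in heart BEC alone, which favours a lower call. Here 22246 genes were tested, against 15691 in the fit of cardiomyocytes alone. Rpl39l, under 1 TPM in every cardiomyocyte library, was among the 79 (log2 difference -0.44, limma adjusted p = 0.0219). The median log2 difference was -0.71 over the members and -0.64 over all genes, so the share of lower members stood beside a matrix in which 14795 genes were lower and 2511 higher. Rescaling each library to its nuclear protein-coding genes, which takes the mitochondrial transcripts out of the total, left 27 of 82 members lower and 4 higher. Of the 14824 nuclear protein-coding genes then tested, 6884 were lower and 3675 higher. The medians were -0.10 over the members and -0.30 over all genes tested. Quantile normalization gave 27 of 82 members lower and 3 higher, beside 6764 of 22246 genes lower and 4800 higher, with medians of -0.11 and -0.15. The members lower under all 3 scalings numbered 23 and included Rps27, Rpl41, Rps19, Rps3 and Rpl3. The number of all genes lower under all 3 scalings was not counted. Of the members lower on the TPM scale 18 lay above 0 after rescaling.

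Rps27 had the largest negative difference. Its level had a median of 604 TPM in cardiomyocytes (542 to 890) and 1385 TPM in heart BEC (1187 to 1767), so that no libraries overlapped, and its log2 difference was -1.16 (SE 0.08, limma adjusted p = 1.51e-11), or -0.54 after rescaling. Rpl41 had a log2 difference of -1.03 (limma adjusted p = 7.64e-09), Rps19 of -1.01 (limma adjusted p = 1.50e-11), Rps3 of -1.01 (limma adjusted p = 2.19e-10) and Rpl3 of -0.97 (limma adjusted p = 1.75e-12). After rescaling these were -0.40 for Rpl41, -0.39 for Rps19, -0.39 for Rps3 and -0.34 for Rpl3. Every cardiomyocyte library lay below every heart BEC library for 24 members, against 24.4% of all genes.

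A few members departed from the common shift. Rpsa, a small subunit protein also known as the laminin receptor, had a median of 270 TPM in cardiomyocytes (199 to 403) and 300 TPM in heart BEC (252 to 366). Its log2 difference of -0.15 did not pass (limma adjusted p = 0.0855), and it was called higher in cardiomyocytes, by 0.48, after rescaling. Rps2, at the mRNA entry channel, was lower on the TPM scale (log2 difference -0.37) and higher after rescaling (0.26) and quantile normalization (0.16). Rpl10 was lower on the TPM scale (-0.47) and higher after rescaling (0.16), and its 0.09 under quantile normalization did not pass. Rplp2 was the other member that did not pass, with a log2 difference of -0.31 (limma adjusted p = 0.0757) that was 0.32 after rescaling. These members were picked after their values were seen. Rpl3l alone was higher in cardiomyocytes under all 3 scalings, by 3.31 on the TPM scale, 3.99 after rescaling and 3.92 with quantile normalization.

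**Figure D3:**
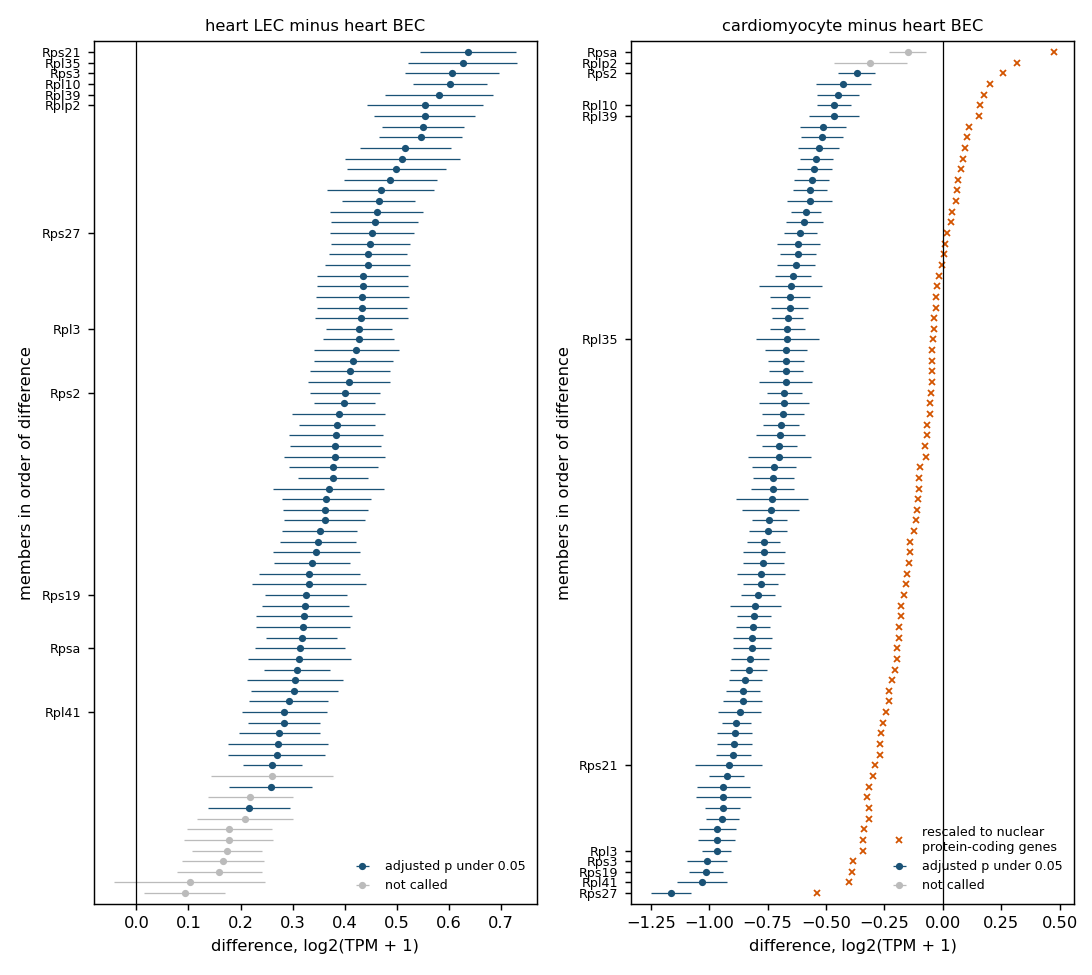
Log2 difference of each tested member (horizontal axes, log2(TPM + 1), bars are SE) for heart LEC against heart BEC and for cardiomyocytes against heart BEC, 1 point per gene in order of size (vertical axes), coloured by whether the adjusted p was under 0.05, with some genes of the text labelled and the low genes Rpl3l and Rpl39l not drawn. Crosses in the cardiomyocyte panel give the differences after rescaling to nuclear protein-coding genes, which had a median of -0.10 against -0.71 before.

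Rpl3l, at chr17:24727820-24736143 on the plus strand, is the paralogue of Rpl3 (chr15:80077791-80091868, minus strand), whose product reaches towards the peptidyl transferase centre. In cardiomyocytes Rpl3l was at 16.2, 19.95, 23.3 and 29.0 TPM in the control libraries, at 13.9, 23.2, 27.9, 28.0 and 21.9 TPM in the angII libraries and at 14.4, 29.4 and 20.2 TPM in the angII+VEGFCc156s libraries. The treatments overlapped throughout, with log2 differences from control of -0.01 (SE 0.24) for angII and 0.00255 (SE 0.28) for angII+VEGFCc156s. In heart BEC its median was 1.24 TPM (listed at 0 to 4.50), in heart LEC 0.832 TPM (0 to 3.52) and in diaphragm LEC 0.0922 TPM (0 to 5.72). All cardiomyocyte libraries lay above all heart BEC libraries, as in 3.65% of all genes, and the log2 difference was 3.31 (SE 0.20, limma adjusted p = 4.01e-13).

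As a share of the summed TPM of the pair, Rpl3l made up 9.60% ± 2.40 (SD, n = 12) in cardiomyocytes, from 5.498% to 13.0%, and 0.332% ± 0.302 in heart BEC, 0.230% ± 0.242 in heart LEC and 0.224% ± 0.332 in diaphragm LEC. Within cardiomyocytes the share was 10.1% ± 2.37 (n = 4) in control, 9.82% ± 2.83 (n = 5) in angII and 8.62% ± 2.29 (n = 3) in angII+VEGFCc156s libraries, which overlapped. Rpl3 itself stayed the major form, with 211 TPM ± 18.0 (SD, n = 12) in cardiomyocytes. A share within a library does not depend on the scaling of that library.

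The other pairs differed less between populations. Rps27l made up 24.3% ± 2.37 (SD, n = 12; 21.2 to 27.2) of the Rps27 pair in cardiomyocytes, 18.6% ± 2.56 (14.3 to 22.6) in heart BEC, 16.7% ± 2.70 in heart LEC and 17.0% ± 1.76 in diaphragm LEC. Both genes were lower on the TPM scale in cardiomyocytes than in heart BEC, Rps27l by a log2 difference of -0.67 and Rps27 by -1.16, but after rescaling the difference of Rps27l was -0.04 and did not pass. Rpl22l1 made up 43.0% of the pair with Rpl22 in cardiomyocytes, 43.6% in heart BEC, 46.0% in diaphragm LEC and 46.9% in heart LEC, and Rpl7l1 between 10.2% and 13.2% of the pair with Rpl7. Rpl39l made up less than 1% of the pair with Rpl39 in every population, with a highest mean of 0.64% in heart LEC.

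**Figure D4:**
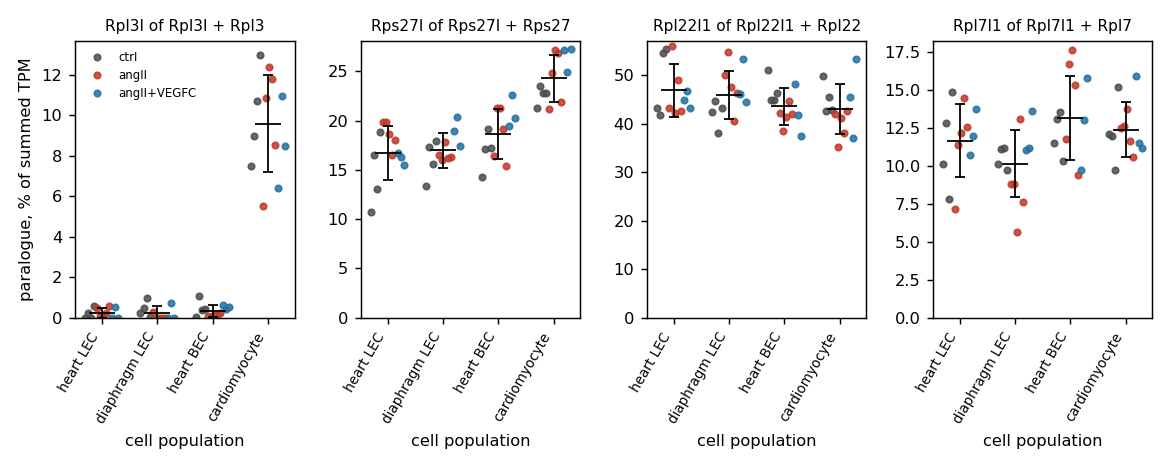
Share of the paralogue in the summed TPM of paralogue and core gene (vertical axes, percent) by cell population (horizontal axes), 1 point per library coloured by treatment, with the mean and SD over 12 libraries. The Rpl3l share is 5.498% to 13.0% in cardiomyocytes and at most 1.05% in heart BEC, and the Rps27l share is highest in cardiomyocytes.

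The treatment comparisons asked whether angII, or VEGFCc156s added to it, moved the ribosomal protein mRNAs within a population. The 3 contrasts of a population share libraries, each pair of contrasts having a treatment in common. In limma with adjustment over all genes tested, no member passed in any of the 12 contrasts, and the counts below are of unadjusted p under 0.05. The members nevertheless lay to the same side of 0 in several contrasts.

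In heart LEC, angII libraries had lower values of ribosomal protein genes than control libraries. The summed share was 5.96% ± 0.623 (SD, n = 4) in control, 4.83% ± 0.520 (n = 5) in angII and 5.27% ± 0.567 (n = 3) in angII+VEGFCc156s libraries, with ranges of 5.10% to 6.54% in control and 4.01% to 5.44% in angII libraries. For angII against control, 0 of 82 members passed, against 0.0261% of all genes, and 35 members were lower at an unadjusted p under 0.05, against 1.93% of all genes. The median log2 difference was -0.33 over the members, 0.23 over all genes and 0.17 over the nuclear protein-coding genes tested. Rpl30, a large subunit protein, was at 476, 368, 371 and 347 TPM in control, at 213, 325, 232, 263 and 329 TPM in angII and at 345, 320 and 307 TPM in angII+VEGFCc156s libraries. Every angII library lay below every control library for Rpl30, with a log2 difference of -0.53 (SE 0.18, limma adjusted p = 0.312).

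Rpl38, known for its part in the translation of homeobox mRNAs in mice, was at 602, 483, 820 and 559 TPM in control and at 386, 472, 526, 441 and 502 TPM in angII libraries, so the groups overlapped, and its log2 difference was -0.48 (limma adjusted p = 0.276). Rpl13a, which also binds mRNAs of inflammation outside the ribosome, was at 905, 676, 801 and 652 TPM in control and at 578, 461, 515, 584 and 667 TPM in angII libraries, with a log2 difference of -0.45 (limma adjusted p = 0.302). The highest angII library, at 667 TPM, lay above the lowest control library. For 9 members every angII library lay below every control library, against 0.481% of all genes, among them Rpl3, Rpl5, Rpl14, Rpl23a, Rpl24, Rpl30, Rplp0 and Rps2.

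Other measures moved with this contrast. Heart LEC angII libraries had 22939 ± 2327 genes at 1 TPM or more (SD, n = 5) and control libraries 19234 ± 3409 (n = 4). The summed TPM of 5 erythroid markers was 6.98 to 2186 in control and 2063 to 6531 in angII libraries, that of 9 cardiomyocyte markers 155 to 421 and 207 to 1192, and that of 7 pericyte and smooth muscle markers 45.6 to 388 and 114 to 839; no erythroid, cardiomyocyte or pericyte gene was called. The summed TPM of 7 lymphatic endothelium markers was 22833 to 32107 in control and 18170 to 25465 in angII libraries, and that of 7 blood endothelium markers was 1594 to 2233 and 1992 to 4875, with 0 genes of either list called. With the number of genes detected as a covariate, 2 members were lower at an unadjusted p under 0.05, with medians of -0.24 over the members and -0.05 over all genes. Without angII replicate 1 there were 5, without angII replicate 3 there were 23, and without control replicate 2 or 3 there were 20 and 17. Within batch 1 the summed share was 6.40% in control (n = 2) and 4.76% in angII libraries (n = 3), and within batch 2 it was 5.53% and 4.95% (n = 2 each). The part of these measures in the lower values was not tested.

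For VEGFCc156s added to angII in heart LEC, 0 of 82 members passed, against 0% of all genes, and 4 were higher at an unadjusted p under 0.05, against 1.09% of all genes, with a median log2 difference of 0.18 over the members and -0.37 over all genes. Over the nuclear protein-coding genes tested it was -0.22. Rpl12 had the smallest p, at 133, 202, 203, 173 and 218 TPM in angII and 274, 255 and 195 TPM in angII+VEGFCc156s libraries, which overlapped (log2 difference 0.50, limma adjusted p = 0.436). Rpl32 had a log2 difference of 0.40 (limma adjusted p = 0.446) and Rpl35 of 0.41 (limma adjusted p = 0.458). For angII+VEGFCc156s against control, 0 of 82 members passed, against 0% of all genes, and 0 were at an unadjusted p under 0.05, against 4.94% of all genes in either direction. The median log2 difference was -0.13 over the members and -0.13 over all genes, the smallest adjusted p, 0.915 in limma, was shared by Rpl13a (-0.33), Rpl21 (-0.33) and Rpl39l (-1.40), and 4 members lay below control in every library, against 2.14% of all genes.

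The members moved least in diaphragm LEC. The summed share was 5.57% ± 0.394 (n = 4) in control, 5.33% ± 0.655 (n = 5) in angII and 5.24% ± 0.354 (n = 3) in angII+VEGFCc156s libraries. For angII against control, 0 of 82 members passed, against 0% of all genes, and 2 were lower at an unadjusted p under 0.05, against 1.45% of all genes, with medians of -0.07 over the members and 0.28 over all genes. Over the nuclear protein-coding genes tested the median was 0.08. The members with the smallest p were Rpl3l, with a log2 difference of -1.39 (limma adjusted p = 0.303), Rpl22 with -0.31 (limma adjusted p = 0.316) and Rpl7l1, which acts in ribosome assembly, with -0.39 (limma adjusted p = 0.363). Rpl3l was at 1.46, 2.88, 5.72 and 0.184 TPM in control libraries, at 1.56 TPM in 1 angII library and listed at 0 in the other 4. Control libraries had 12924 to 18116 genes at 1 TPM or more and angII libraries 20062 to 23691. AngII replicate 3 had the lowest summed share, 4.39%. Its 7 lymphatic endothelium markers summed to 22654 TPM, against 35606 to 43222 in the other angII libraries. The count of 2 was 0 without control replicate 3 and 5 without angII replicate 1. The part of these measures was not tested.

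For VEGFCc156s added to angII in diaphragm LEC, 0 of 82 members passed, against 0% of all genes, and 1 was higher at an unadjusted p under 0.05, against 1.12% of all genes. Rpl7l1 was at 62.2, 62.0, 37.2, 79.4 and 49.0 TPM in angII and 78.0, 76.3 and 88.6 TPM in angII+VEGFCc156s libraries, which overlapped (log2 difference 0.51, limma adjusted p = 0.567), Rpl39l had 0.94 (limma adjusted p = 0.588) and Rpl17 -0.22 (limma adjusted p = 0.623). For angII+VEGFCc156s against control, 0 of 82 members passed, against 0% of all genes, 0 were at an unadjusted p under 0.05, against 1.32% of all genes in either direction, and 7 lay below control in every library, against 1.8% of all genes. The median log2 difference was -0.04, with Rps25 at -0.26, Rpl3 at -0.18 and Rpl23a at -0.18.

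In heart BEC the treated groups also had lower mean summed shares, 3.98% ± 0.470 (n = 5) in angII and 3.86% ± 0.474 (n = 3) in angII+VEGFCc156s against 4.55% ± 0.385 (n = 4) in control libraries. The libraries overlapped, at 4.20% to 5.10% in control, 3.67% to 4.77% in angII and 3.33% to 4.25% in angII+VEGFCc156s. Under angII, 0 of 82 members passed against control, against 0% of all genes, and 15 were lower at an unadjusted p under 0.05, against 2.83% of all genes, with medians of -0.18 over the members and -0.06 over all genes. For angII+VEGFCc156s against control, 0 of 82 passed, against 0% of all genes, and 29 were lower at an unadjusted p under 0.05, against 3.02% of all genes, with medians of -0.24 and -0.01. The contrasts share their control libraries.

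Rpl22l1, the paralogue of Rpl22, had the smallest p in each of these contrasts with control. It was at 200.2, 168, 187 and 139 TPM in control, at 161, 109, 104, 122 and 118 TPM in angII and at 102, 131 and 101 TPM in angII+VEGFCc156s libraries. All angII+VEGFCc156s libraries lay below all control libraries (log2 difference -0.65, SE 0.14, limma adjusted p = 0.528), while 1 angII library reached into the control range (log2 difference -0.48, SE 0.12, limma adjusted p = 0.671). Rps21 was at 447, 375, 560 and 317 TPM in control, at 439, 250, 280, 245 and 286 TPM in angII and at 189, 340 and 271 TPM in angII+VEGFCc156s libraries, which overlapped, with log2 differences from control of -0.50 (limma adjusted p = 0.701) and -0.68 (limma adjusted p = 0.715). Rps29, a small zinc-binding protein of the small subunit, had a log2 difference of -0.50 with angII (limma adjusted p = 0.698), and Rpl13a of -0.55 with angII+VEGFCc156s (limma adjusted p = 0.750).

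Under angII+VEGFCc156s, 21 members lay below control in every heart BEC library, against 2.38% of all genes, and under angII 1 member, Rps9, did, against 0.898% of all genes. Within batch 1 the share was 4.81% in control (n = 2) and 4.17% in angII libraries (n = 3), and within batch 2 it was 4.30% and 3.69% (n = 2 each). The summed TPM of 7 pericyte and smooth muscle markers was 303 to 378 in control, 148 to 282 in angII and 242 to 420 in angII+VEGFCc156s libraries, that of 5 erythroid markers was 5220 to 7980, 5746 to 31325 and 6948 to 12313, and these ranges overlapped except for the pericyte markers of control and angII libraries. Every angII+VEGFCc156s library lay above every control library in the summed TPM of 5 pan-endothelium markers (2854 to 3316 against 1929 to 2831) and of 7 blood endothelium markers (10505 to 12120 against 6649 to 9379), while the angII libraries, at 2487 to 3360 and 7848 to 12512, overlapped control. The part of these markers in the lower values was not tested. Counts of lower members depended on single libraries and on the fit. For angII against control there were 31 with the number of genes detected as a covariate, 2 without control replicate 3, 7 without control replicate 4, 7 without angII replicate 3 and 27 without control replicate 1, and for angII+VEGFCc156s against control there were 12 with those groups fitted alone, 9 without angII+VEGFCc156s replicate 1 and 19 without its replicate 2. VEGFCc156s added to angII gave 0 of 82 members, against 0% of all genes, and 1 higher at an unadjusted p under 0.05, against 1.47% of all genes: Rpl3l, which lay above in every library as 1.41% of all genes did, with a log2 difference of 1.03 (limma adjusted p = 1.00) at levels of a few TPM. Rpl22 had -0.28 and Rpl37 -0.29, and the median was -0.07 over the members and 0.03 over all genes.

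In cardiomyocytes the values lay to the other side. The summed share was 2.16% ± 0.178 (1.95% to 2.31%, n = 4) in control, 2.45% ± 0.193 (2.18% to 2.67%, n = 5) in angII and 2.79% ± 0.653 (2.39% to 3.55%, n = 3) in angII+VEGFCc156s libraries, with the highest value in a single library, replicate 2. In angII against control libraries, 0 of 81 members passed, against 0.0892% of all genes, 1 was higher at an unadjusted p under 0.05, against 8% of all genes, and the medians were 0.19 over the members and 0.12 over all genes. Rps4x, a small subunit protein encoded on the X chromosome, was at 145, 181, 152 and 154 TPM in control and 216, 181, 169, 197 and 209 TPM in angII libraries (log2 difference 0.33, limma adjusted p = 0.488), Rps26 had 0.37 (limma adjusted p = 0.520) and Rpl18 0.32 (limma adjusted p = 0.539). In 8 members every angII library lay above every control library, against 5.1% of all genes.

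For angII+VEGFCc156s against control in cardiomyocytes, 0 of 81 members passed, against 0.663% of all genes, and 15 were higher at an unadjusted p under 0.05, against 8.15% of all genes. All 81 tested members had a log2 difference above 0, with a median of 0.33 against 0.11 over all genes, and 34 lay above control in every library, against 9.19% of all genes. Rpl5 was at 54.1, 58.4, 64.1 and 59.5 TPM in control, at 61.3, 71.6, 63.0, 68.5 and 79.6 TPM in angII and at 83.9, 92.5 and 70.7 TPM in angII+VEGFCc156s libraries. Its angII+VEGFCc156s libraries did not overlap the control libraries, with a log2 difference of 0.50 (SE 0.17, limma adjusted p = 0.226). Rps27l, a target of p53 in mice, was at 154, 185, 203 and 160 TPM in control and at 225, 296 and 226 TPM in angII+VEGFCc156s libraries, also without overlap (log2 difference 0.52, limma adjusted p = 0.253). Rpl12 had a log2 difference of 0.50 (limma adjusted p = 0.285).

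The cardiomyocyte differences moved with the composition of the libraries. Mitochondrial genes took 28.5% ± 2.51 of the TPM in control, 24.2% ± 5.38 in angII and 22.4% ± 6.15 in angII+VEGFCc156s libraries. After rescaling to nuclear protein-coding genes, the median of the members was 0.03 for angII and 0.18 for angII+VEGFCc156s against control, and 1 member was at an unadjusted p under 0.05 in the latter. That count of 15 was 3 with quantile normalization and 2 with those groups fitted alone, and 42 with the number of genes detected as a covariate, 29 with a surrogate variable and 27 without covariates. For angII against control the count of 1 was 13 with the number of genes detected as a covariate. The summed TPM of 9 leukocyte markers was 645 to 844 in control, 1043 to 1891 in angII and 1024 to 2230 in angII+VEGFCc156s libraries, and that of 6 fibroblast markers was 2157 to 3113, 3102 to 4551 and 3091 to 4724. The part of these measures in the higher values was not tested. Without angII+VEGFCc156s replicate 2 no member was at an unadjusted p under 0.05, without control replicate 1 there was 1, without control replicate 4 there were 7, without angII replicate 4 there were 8, and without angII+VEGFCc156s replicate 3 there were 38. VEGFCc156s added to angII gave 0 of 81 members, against 0% of all genes, and 1 higher at an unadjusted p under 0.05, against 0.848% of all genes, with medians of 0.15 and -0.03. In 4 members, Rpl34, Rpl35a, Rpl9 and Rps19, every angII+VEGFCc156s library lay above every angII library, against 0.835% of all genes, and the smallest p values belonged to Rpl22l1 (log2 difference 0.37), Rpl34 (0.33) and Rpl32 (0.34).

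**Figure D5:**
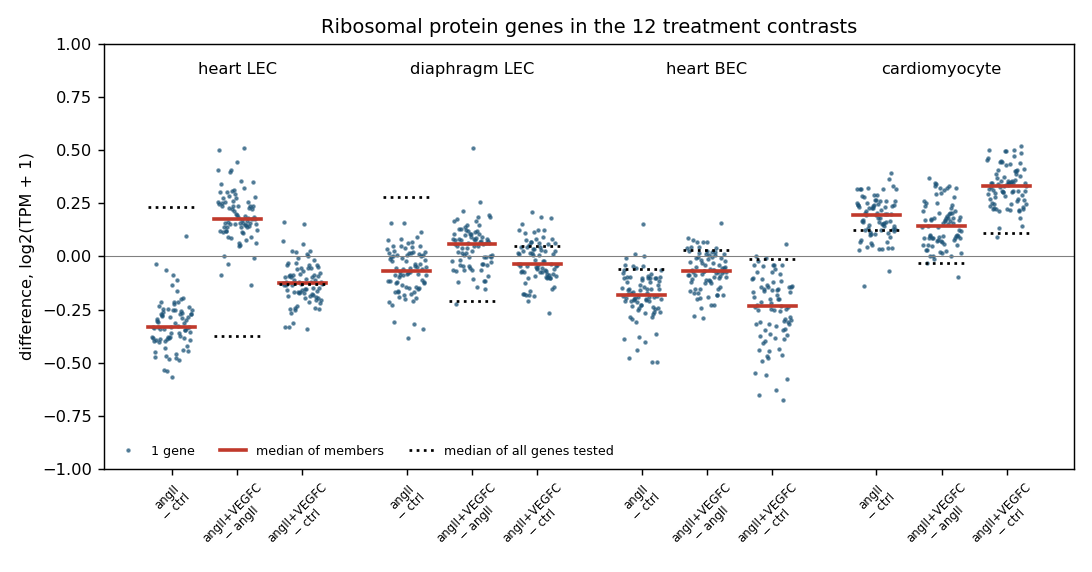
Log2 differences of the tested members (vertical axis, log2(TPM + 1)) in the 12 treatment contrasts (horizontal axis), 1 point per gene, with the median of the members and the median of all genes tested as lines and the low genes Rpl3l and Rpl39l not drawn. The members' medians are -0.33 in heart LEC and -0.18 in heart BEC for angII against control and 0.33 in cardiomyocytes for angII+VEGFCc156s against control, and no point passed an adjusted p of 0.05.

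Whether a treatment difference varied between populations was tested as an interaction in limma. For angII against control, heart LEC against heart BEC gave 0 of 82 members that passed, against 0% of all genes, and 0 were at an unadjusted p under 0.05, against 7.47% of all genes in either direction. The median interaction was -0.10 over the members and 0.25 over all genes. For VEGFCc156s added to angII, heart LEC against heart BEC gave 0 of 82 members, against 0% of all genes, and 1 higher at an unadjusted p under 0.05, Rps15a, against 0.549% of all genes. Here the medians were 0.17 over the members and -0.33 over all genes. Diaphragm against heart LEC gave 0 of 82 members for angII, against 0.00691% of all genes, with 12 higher at an unadjusted p under 0.05, against 5.5% of all genes, and 1 lower, against 4.5%. Its medians were 0.23 over the members and 0.08 over all genes. The count of 12 was 25 without diaphragm LEC angII replicate 3 and 3 without heart LEC angII replicate 1. For VEGFCc156s added to angII the same populations gave 0 of 82, against 0% of all genes, and 1 lower at an unadjusted p under 0.05, Rpl17, against 1.96% of all genes, which became 9 after rescaling and 7 with quantile normalization. These medians were -0.15 over the members and 0.05 over all genes.

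Cardiomyocytes and heart BEC of the same hearts lay to opposite sides of their controls, and the interaction was tested after this had been seen. This fit had no batch term, so the sequencing batches within heart BEC were not adjusted for. For angII+VEGFCc156s against control, 0 of 82 members passed, against 0% of all genes, and 67 were higher at an unadjusted p under 0.05, against 5.95% of all genes. The interaction lay above 0 for 81 of 82 members, with a median of 0.56 against 0.17 over all genes. The smallest adjusted p, 0.272 in limma, was shared by Rpl22l1 (interaction 0.85, SE 0.21), Rps15a (0.90) and Rpl23a (0.69). The count of 67 was 30 after rescaling, 36 with quantile normalization, 27 without cardiomyocyte angII+VEGFCc156s replicate 2 and 42 without heart BEC angII+VEGFCc156s replicate 1. For angII against control, 0 of 82 members passed, against 0% of all genes, and 24 were higher at an unadjusted p under 0.05, against 4.76% of all genes, with a median of 0.36. This count was 6 after rescaling, 9 with quantile normalization and 40 with the number of genes detected as a covariate. It was 9 without cardiomyocyte control replicate 1, 11 without heart BEC angII replicate 2 or control replicate 3, 42 without heart BEC angII replicate 1 and 40 without cardiomyocyte angII+VEGFCc156s replicate 2.

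The genes around the ribosome were read from lists given by their known roles. In heart LEC against heart BEC, the 4 ribosomal proteins outside the symbol rule included Fau, which is made as a fusion with a ubiquitin-like protein and was higher by a log2 difference of 0.30 (limma adjusted p = 0.00453). Of 19 genes listed as known TOP mRNAs outside the ribosome, mostly translation factors, 7 were higher and 1 lower (median 0.18), of 45 ribosome biogenesis genes 6 were higher and 2 lower (median 0.07), and of 19 regulators 3 were higher and 6 lower (median -0.22), beside 10.6% of all genes higher and 9.99% lower. Promoter windows matched 14 of the 19 TOP genes. Of their 15 annotated starts, 5 (33.3%) had a run within 10 bases, against 26.5% of all starts. A run covered the start base in 4 (26.7%), against 8.02% of all starts. Myc, a transcription factor that drives ribosome biogenesis, was higher in heart LEC by a log2 difference of 1.61, its paralogue Mycn was lower by a log2 difference of -2.67 (16.3 TPM in heart LEC and 82.98 TPM in heart BEC), and Mtor was lower by a log2 difference of -1.06. Of 78 mitochondrial ribosomal protein genes 15 were higher and 2 lower (median 0.13), and of 54 nuclear genes of respiratory complex I and the ATP synthase 31 were higher and 4 lower (median 0.26), so that the median of the members, 0.37, lay above that of each of these lists.

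In cardiomyocytes against heart BEC, 42 of 45 biogenesis genes (median -0.95), 18 of the 19 listed TOP genes (median -0.82), 17 of 19 regulators (median -1.09), 9 of 9 small nucleolar RNA host genes (median -1.65) and 14 of 14 core proteasome genes (median -0.69) were lower on the TPM scale, as 66.5% of all genes were. The translation elongation factors gave a second pair of muscle and general forms beside Rpl3l and Rpl3. Eef1a2, known from heart, skeletal muscle and neurons, averaged 8.65 TPM in cardiomyocytes against 0.219 TPM in heart BEC, higher by a log2 difference of 2.94 (SE 0.13, limma adjusted p = 4.31e-15). The general form Eef1a1 was lower on the TPM scale by a log2 difference of -0.96, beside a median of -0.64 over all genes. Rescaled differences are not given for the elongation factors or for the gene lists of this comparison. Mitochondrial ribosomal protein genes were mixed, with 14 of 78 higher and 32 lower (median -0.18), and 49 of 54 genes of complex I and the ATP synthase were higher (median 0.96).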

How the data were processed

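RNA of 48 libraries, converted with a SMART-Seq ultra low input kit and a Nextera XT kit that does not keep the strand, was measured as gene-level TPM by the authors, and the deposited matrix holds 1 TPM column per library for 54752 Ensembl genes (GRCm38). The submitters' processing notes name STAR 2.5.3a and Salmon 0.12.0. TPM keeps no read depth, so no counting interval was given and the number of libraries limits the precision. Symbols, biotypes and exons came from GENCODE M21 and gene starts from RefSeq (GRCm38.p6).

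Groups came from the labels. Genes that reached 1 TPM in 3 or more libraries of a population were tested with limma 3.58.1 (R 4.3.3) on log2(TPM + 1), so that differences of low genes are understated. The fits had a mean per group, labelled age as a covariate, a trended variance and Benjamini-Hochberg adjustment over all genes tested, at a threshold of 0.05. Batch was a further covariate in the fits of endothelial libraries only, and not in the fit of cardiomyocytes with heart BEC. Population differences were averaged over the 3 treatments. Figures and summaries used Python 3.11.15 and matplotlib 3.10.9. The script was tested on simulated data. Libraries of a mouse were paired by the animal number of the labels. With the mouse as a block, the consensus correlation was 0.135 in the endothelial fit and 0.0237 in the fit of cardiomyocytes and heart BEC.

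The members and gene lists were chosen with earlier results of these data known. Some genes that the rule selects are not reported here. Named genes were the paralogue pairs, the 5 members with the largest difference in each direction between populations among those that passed, the 3 with the smallest p in each treatment contrast, and the 5 with the highest and the lowest mean level. Alternatives were no covariates, rescaling to nuclear protein-coding genes, quantile normalization, a pseudocount of 0.1, no filter, the number of genes detected or a surrogate variable as a covariate, the groups compared alone, the mouse block and each library left out. For populations, a further alternative took the contrast between the control groups alone, with all libraries kept in the fit. For 17 members an exon overlaps a gene on the other strand and for 4 on the same strand, and reads shared with pseudogenes may have been split.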

Additional observations from a re-analysis of the deposited data

Results flagged for a closer look

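In groups of 4 or 5 libraries, 6 of 124 sets of values had a highest or lowest library that stood apart by Dixon's test at the 95% level, and chance flags about 1 in 20. The ratio of small to large subunit TPM was 0.753 in 1 control heart BEC library and 0.727 to 0.729 in the other 3. Among the angII libraries of diaphragm LEC, Rpl3l was at 1.56 TPM, or 0.253% of the pair with Rpl3, in 1 library and listed at 0 in the other 4, and Rps27l made up 17.8% of the pair with Rps27 in 1 library and 16.0% to 16.5% in the others. Rps21 was at 439 TPM in 1 angII library of heart BEC and at 245 to 286 TPM in the others. Rpl22l1 was at 83.4 TPM in 1 angII library of cardiomyocytes and at 60.3 to 65.4 TPM in the others.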

How the results depend on the processing

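Counts of members that passed changed by over 1.5 times in 8 of 162 alternatives, not counting libraries left out. For cardiomyocytes against heart BEC, 80 members passed, 31 after rescaling to nuclear protein-coding genes and 30 with quantile normalization, and the median moved from -0.71 to -0.10 and -0.11. For heart LEC against heart BEC, the contrast of the control groups alone gave 32 instead of 70. For diaphragm against heart LEC, the count of 1 was 0 without covariates, with quantile normalization, with rescaling and in the contrast of the control groups alone. It was 2 with the mouse as a replicate block, and 0 to 3 with a library left out. The block changed no other count by over 1.5 times. In the treatment and interaction contrasts the count was 0 in every fit (138 alternatives and 336 with a library left out), so it could not show stability. Of the remaining counts, 16 alternatives and 87 with a library left out stayed within 1.5 times, while 8 and 9 did not. Counts at an unadjusted p under 0.05 moved more: over the alternatives lower members numbered 2 to 40 for angII against control in heart LEC, 12 to 31 in heart BEC and 12 to 37 for angII+VEGFCc156s against control in heart BEC, and higher members 1 to 42 for angII+VEGFCc156s against control in cardiomyocytes. The cause of these changes was not tested.

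Summed shares moved by more than the spread of libraries when taken as a percent of nuclear protein-coding TPM in 8 of 24 cases: cardiomyocytes had 4.00% in control, 4.11% in angII and 4.50% in angII+VEGFCc156s libraries, heart LEC had 6.62%, 5.43% and 6.03%, control diaphragm LEC had 6.02% and control heart BEC had 5.09%. Of the members named above, 433 of 453 alternative values and 1005 of 1020 with a library left out kept their direction and side of the threshold. In cardiomyocytes against heart BEC, rescaling and quantile normalization turned Rpl10 to 0.16 and 0.0906, Rplp2 to 0.32 and 0.21, Rps2 to 0.26 and 0.16, and Rpsa to 0.48 and 0.45. The 32 alternative paralogue shares stayed within the spread of libraries. The cardiomyocyte interactions were chosen after seeing the data. TPM gives no depth, so the precision of low genes such as Rpl10l and Rpl39l could not be set.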

Other observations

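Further copies of ribosomal protein genes lay outside the symbol rule and differed between populations in their share of a pair. Rpl36al, a protein-coding copy of Rpl36a, made up 60.2% ± 3.86 (SD, n = 12) of the summed TPM of the pair in cardiomyocytes, 52.0% ± 2.39 in heart BEC, 47.5% ± 4.35 in diaphragm LEC and 44.8% ± 7.90 in heart LEC, and the libraries of cardiomyocytes (53.0% to 68.3%) overlapped those of heart BEC (48.02% to 55.2%). Rps4l, annotated as a transcribed processed pseudogene beside Rps4x, made up 42.1% ± 4.03 of its pair in heart BEC, 38.6% ± 6.89 in diaphragm LEC, 31.9% ± 7.59 in heart LEC and 31.2% ± 2.62 in cardiomyocytes.

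Of the 295 pseudogenes named after a member, the summed TPM was 1.54% ± 0.576 (SD, n = 12) of that of the members in heart LEC, 1.35% ± 0.935 in diaphragm LEC, 1.09% ± 0.244 in heart BEC and 0.878% ± 0.275 in cardiomyocytes. The pseudogenes of Rpl31 reached 15.2% of the level of Rpl31 in heart LEC, 10.7% in diaphragm LEC, 8.43% in heart BEC and 6.11% in cardiomyocytes, and those of Rpl21 reached 10.3%, 7.09%, 5.81% and 3.81% of the level of Rpl21. Reads of a member and its near-identical pseudogenes may have been split between them, and the part of this in the differences between populations was not tested.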
